A study of Mus musculus with 391 samples.

Results

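The Ms4a family genes followed here across single mouse brain cells are Ms4a7, Ms4a6b, Ms4a6c, Ms4a6d, Ms4a4a and Ms4a4c. They are 6 of the 21 Ms4a genes, and of the 56941 genes, in the deposited table, and were taken by name. The question was which microglia-class cells carried which of them, with endothelial cells as the background. Adult mouse brains had been broken down to vessel fragments and then to single cells, which were sorted into plates for Smart-seq2, a method that reads whole transcripts and does not tag molecules. By their labels 280 cells are microglia, the resident macrophages of the brain, and 111 are endothelial cells, the lining of blood vessels. The class codes deposited with the cells are MG and CP-EC, and no meaning of CP is labelled. No treatment, genotype, strain or exact age is labelled. No animal is named either, so a class counts as a single sample and cells were not tested against each other.

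The MS4A proteins span the membrane several times and sit at the cell surface and in endosomes, where several join receptor complexes. Ms4a1 encodes the B cell antigen CD20 and Ms4a2 the beta chain of the high-affinity IgE receptor. In human macrophages MS4A4A associates with the beta-glucan receptor dectin-1, and variation at the human MS4A cluster has been linked to soluble TREM2 and to Alzheimer's disease. In mouse brain Ms4a7 is used as a marker of border-associated macrophages, which live along vessels, in the meninges and in the choroid plexus, and of macrophages of blood origin as against resident microglia.

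All 6 lie in 1 cluster on mouse chromosome 19. Among the protein-coding genes of RefSeq (GRCm38.p6) the order there was Ms4a14, Ms4a7, Ms4a4a, Ms4a4c, Ms4a4b, Ms4a6c, Gm8369, Ms4a6b, Ms4a4d and Ms4a6d. The table's reads were counted on the later build GRCm39, so GRCm38.p6 serves for order, names and promoter sequence and not for the counts. Gene lengths given below come from GENCODE M21, also on the older build, and enter the levels per length. Start-site windows, 250 bases before to 50 after the start, were at hand for 5 of the 6 members. Ms4a6b and Ms4a6c are shown first because their windows were the most alike among the members, and capitals mark runs of 12 or more bases that both share in the same order.
Ms4a6b (GRCm38.p6, chr19:11518309-11518608, plus strand): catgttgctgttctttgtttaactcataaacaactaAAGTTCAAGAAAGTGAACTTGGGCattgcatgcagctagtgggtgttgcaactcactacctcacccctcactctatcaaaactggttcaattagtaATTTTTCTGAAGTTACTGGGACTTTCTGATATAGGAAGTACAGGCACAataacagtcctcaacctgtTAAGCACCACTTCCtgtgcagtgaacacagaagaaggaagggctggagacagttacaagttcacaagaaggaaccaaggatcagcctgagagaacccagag
Ms4a6c (GRCm38.p6, chr19:11469118-11469417, plus strand): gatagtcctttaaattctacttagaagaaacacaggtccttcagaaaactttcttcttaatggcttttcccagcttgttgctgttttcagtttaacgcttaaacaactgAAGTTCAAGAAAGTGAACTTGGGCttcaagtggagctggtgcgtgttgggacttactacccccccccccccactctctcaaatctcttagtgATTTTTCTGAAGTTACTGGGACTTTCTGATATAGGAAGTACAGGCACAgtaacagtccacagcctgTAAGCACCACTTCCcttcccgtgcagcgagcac
Of 300 bases, 192 (64%) aligned as identical, and the longest shared run was 48 bases. Ms4a4c and its neighbour Ms4a4b, which is no member, were more alike still, with 226 of 300 bases identical (75.3%) and a longest run of 20. They are shown because their read counts were far apart, and capitals again mark shared runs of 12 or more bases.
Ms4a4c (GRCm38.p6, chr19:11407411-11407710, plus strand): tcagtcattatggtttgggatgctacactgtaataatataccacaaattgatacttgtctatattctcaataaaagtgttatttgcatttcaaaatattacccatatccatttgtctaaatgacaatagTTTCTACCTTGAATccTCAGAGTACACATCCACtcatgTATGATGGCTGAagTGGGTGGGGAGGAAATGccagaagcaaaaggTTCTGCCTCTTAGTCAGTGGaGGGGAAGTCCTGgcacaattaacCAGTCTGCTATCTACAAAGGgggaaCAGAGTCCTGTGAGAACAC
Ms4a4b (GRCm38.p6, chr19:11443308-11443607, plus strand): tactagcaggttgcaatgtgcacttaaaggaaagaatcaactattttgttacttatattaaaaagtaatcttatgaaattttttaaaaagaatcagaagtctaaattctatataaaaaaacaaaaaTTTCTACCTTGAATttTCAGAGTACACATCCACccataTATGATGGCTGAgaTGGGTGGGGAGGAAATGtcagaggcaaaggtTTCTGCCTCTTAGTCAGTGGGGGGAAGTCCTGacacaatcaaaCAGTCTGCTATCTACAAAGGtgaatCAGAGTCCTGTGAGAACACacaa
Ms4a7 and Ms4a4a, the pair with the highest correlation across cells in what follows, had no shared run above 7 bases, and 151 of 300 bases aligned as identical. Capitals mark that run in both. RefSeq lists another start for Ms4a7, and the window of the first is shown.
Ms4a7 (GRCm38.p6, chr19:11336097-11336396, minus strand): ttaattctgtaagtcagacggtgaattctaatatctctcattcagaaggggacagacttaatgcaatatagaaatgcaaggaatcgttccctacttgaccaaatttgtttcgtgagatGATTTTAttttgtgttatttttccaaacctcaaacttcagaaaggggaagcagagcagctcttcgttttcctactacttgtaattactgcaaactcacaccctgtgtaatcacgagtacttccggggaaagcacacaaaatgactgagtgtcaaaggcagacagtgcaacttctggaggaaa
Ms4a4a (GRCm38.p6, chr19:11375238-11375537, plus strand): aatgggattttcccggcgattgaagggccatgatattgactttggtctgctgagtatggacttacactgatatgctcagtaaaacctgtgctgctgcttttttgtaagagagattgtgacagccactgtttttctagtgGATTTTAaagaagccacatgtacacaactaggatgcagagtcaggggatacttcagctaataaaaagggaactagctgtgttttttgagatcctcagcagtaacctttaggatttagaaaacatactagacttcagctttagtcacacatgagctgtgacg
Both strands were searched for 2 motifs. GGAAGT, the core of sites for ETS factors such as PU.1, was found 2 times each in Ms4a6b and Ms4a6c, and 1 time each in Ms4a7, Ms4a4c and Ms4a4b. It was not found in the Ms4a4a window, and 23.8% of all 32851 windows hold it. TATAAA, the core of the TATA box, was found 1 time in Ms4a4b, in none of the other windows printed here, and in 13.6% of all windows. These are matches of letters and show no binding.

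All 6 members were higher in the microglia class than in the endothelial class. Counting a gene as higher at 4-fold or more on the log2(CPM + 1) scale, among 14989 genes at 1 CPM or more in either class, 6 of 6 members were called, and 19.9% of all genes were. Each member was below 1 CPM in the endothelial class, so all 6 passed this filter through the microglia class only. They could thus not have been called lower, and the count is a description and no test. CPM is a gene's count per 1000000 reads assigned to genes, with the cells of a class pooled. The median log2 ratio of all genes was 0.36, and those of the members lay between 6.55 and 8.70. Values in parentheses after a CPM, ratio or share are exact 95% intervals, which cover counting error only and say nothing about differences between animals. Those of a CPM or ratio take each read as independent, and leave out the spread between cells and plates. Pooled per plate, Ms4a7 stood at 779 CPM in the microglia-class cells of plate A and 628 CPM in those of plate B. Ms4a4c stood at 57.3 CPM on plate A and 112 CPM on plate B.

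Ms4a7 had a median of 50.5 reads per microglia-class cell, with a lowest of 0 and a highest of 851, against a median of 0 and a highest of 3 in endothelial cells. Pooled, that was 682 (674 to 689) CPM in the microglia class and 0.749 (0.428 to 1.22) CPM in the endothelial class, a ratio of 909.9 (560.2 to 1592). The highest endothelial cell, at 22.2 CPM, lay below the microglia median of 427 CPM, and the classes overlap because some microglia-class cells held none, as for every member.

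Ms4a6b had a median of 15 reads (0 to 612) in microglia-class cells, against 0 (0 to 1) in endothelial cells. It stood at 455 (449 to 461) CPM in the microglia class and 0.0936 (0.0113 to 0.338) CPM in the endothelial class, a ratio of 4857 (1344.5 to 40112) that rests on 2 endothelial reads. Ms4a4a, the mouse counterpart of the human dectin-1 partner, had a median of 1 read (0 to 625) in microglia-class cells, against 0 (0 to 2) in endothelial cells. Its pooled level was 337 (332 to 342) CPM in the microglia class and 0.328 (0.132 to 0.675) CPM in the endothelial class, a ratio of 1029 (499 to 2559.7). Unlike for Ms4a7, the median microglia-class cell held almost no Ms4a4a, so the pooled level came from a part of the cells.

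Ms4a6d, whose protein pairs with the macrophage receptor VSIG4 in mouse, had a median of 1 read (0 to 465) in microglia-class cells, against 0 (0 to 1) in endothelial cells. It stood at 282 (277 to 287) CPM in the microglia class and 0.0936 CPM in the endothelial class, a ratio of 3014 (834 to 24893) on 2 endothelial reads. Ms4a6c had a median of 9 reads (0 to 354) in microglia-class cells and no read in any endothelial cell. Ms4a6c stood at 255 (251 to 260) CPM in the microglia class. With the endothelial class set to a floor of 3 reads over all its cells, that was 1817-fold higher. The exact 95% interval of the ratio began at 1478. Ms4a4c, known from mouse monocytes, was the sparsest member, with a median of 0 reads and a highest of 396 in microglia-class cells and 0 in all endothelial cells. It stood at 92.6 (89.8 to 95.3) CPM in the microglia class. That was 659-fold higher at the same floor, and the interval of the ratio began at 536.

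**Figure D1:**
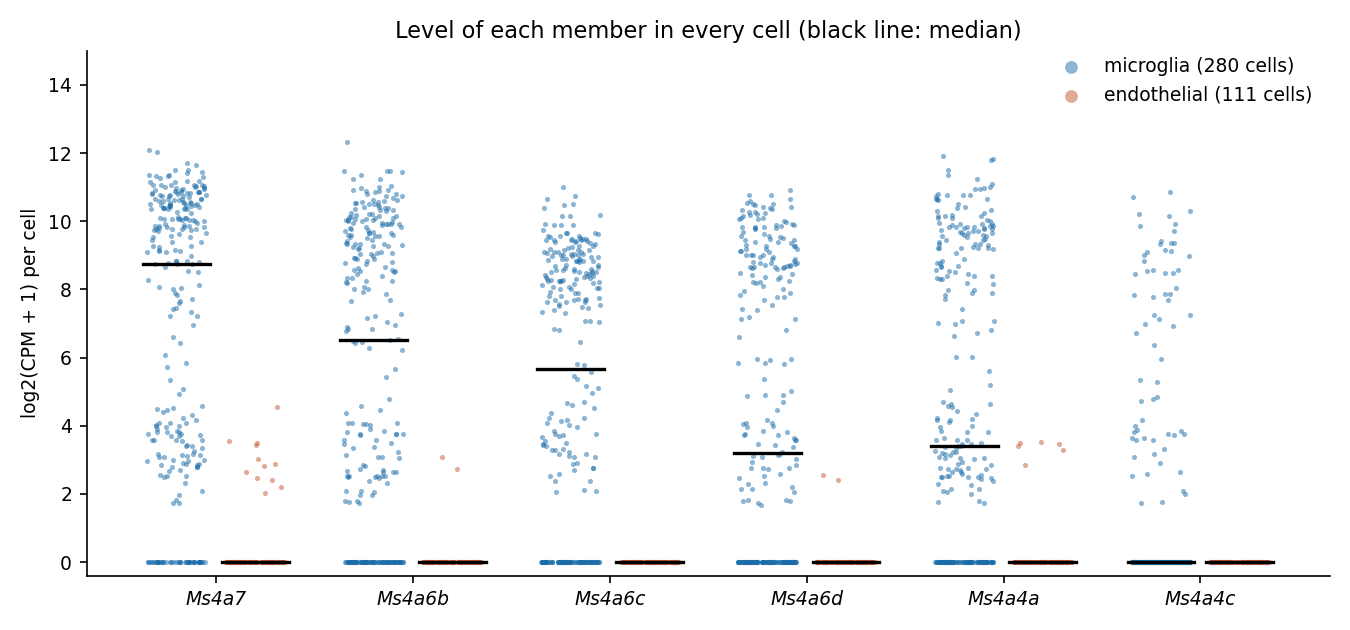
Level of each member in every cell as log2(CPM + 1), microglia-class cells (280) left of endothelial cells (111), with black lines at the medians. Some microglia-class cells lie far above every endothelial cell for each member, others lie at 0, and no endothelial cell held more than 3 reads of a member.

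Levels of different genes can be set side by side only per length. Per kilobase of the union of exons (GENCODE M21), the microglia class had 403 CPM per kb of Ms4a4a, 163 of Ms4a6d, 153 of Ms4a7, 124 of Ms4a6c, 101 of Ms4a6b and 52.9 of Ms4a4c. Per kilobase of the longest coding sequence the order was Ms4a7 (851), Ms4a6b (621), Ms4a4a (476), Ms4a6c (392), Ms4a6d (381) and Ms4a4c (137). Ms4a6c and Ms4a4c kept their places, the fourth and the last on both scales, and the other members did not, so no order among those is read from these data. Closely related genes can share reads: of all 50-base windows of their transcripts, 8.19% of Ms4a4c's, 5.85% of Ms4a6c's, 3.44% of Ms4a6b's and 2.31% of Ms4a6d's also occurred in another Ms4a gene, and none of Ms4a7's or Ms4a4a's did.

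Carrying a member was counted at 1 read or more and at 10 reads or more, since a few reads can reach a well from other cells. At 10 reads, Ms4a7 was carried by 161 of 280 microglia-class cells (57.5%, 51.5 to 63.4), Ms4a6b by 144 (51.4%), Ms4a6c by 138 (49.3%), Ms4a6d by 111 (39.6%), Ms4a4a by 110 (39.3%) and Ms4a4c by 37 (13.2%). No endothelial cell carried any of them at 10 reads (0 of 111, which allows up to 3.27%). At 1 read the microglia shares were 83.9%, 72.9%, 67.9%, 59.3%, 66.4% and 23.6% in the same order of genes, and the endothelial shares 10.8%, 1.80%, 0%, 1.80%, 5.41% and 0%. The median depth was 146506 reads in microglia-class cells (39876 to 504875) and 174345 in endothelial cells (83954 to 602175), so the deeper class had the lower shares. Drawn down to 39000 reads per cell, Ms4a7 was read in 69.6% of microglia-class cells and 3.60% of endothelial cells, and Ms4a4c in 17.1% and 0%.

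A member read occurred in 18 of the 111 endothelial cells. Those cells held a median of 15 reads (5 to 502) of 10 macrophage core genes such as Csf1r and C1qb, against 4 (0 to 337) in the other 93. Member reads also occurred on plates with no microglia-class cell among the deposited cells. They were in 3 of 17 endothelial cells on the 2 plates with both classes, and in 15 of 94 on the other 2. Whether those other plates held microglia-class cells that were left out is not labelled. The part of reads from other cells in these counts was not tested.

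Most microglia-class cells carried several members at a time. At 10 reads or more, 43 of 280 cells carried none (15.4%, 11.3 to 20.1), 46 carried 1, 40 carried 2, 65 carried 3, 54 carried 4, 28 carried 5 and 4 carried all 6. At least 4 were carried by 86 cells (30.7%, 25.4 to 36.5), and the median was 3. At 1 read or more only 4 cells carried none (1.43%, 0.391 to 3.62) and 174 carried 4 or more (62.1%, 56.2 to 67.8). In endothelial cells 93 carried none at 1 read, 14 carried 1 and 4 carried 2. Median depth was 150846 reads in the 86 cells with 4 or more members, 143802 in the 151 with 1 to 3 and 134143 in the 43 with none, and its part in the number carried was not tested.

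**Figure D2:**
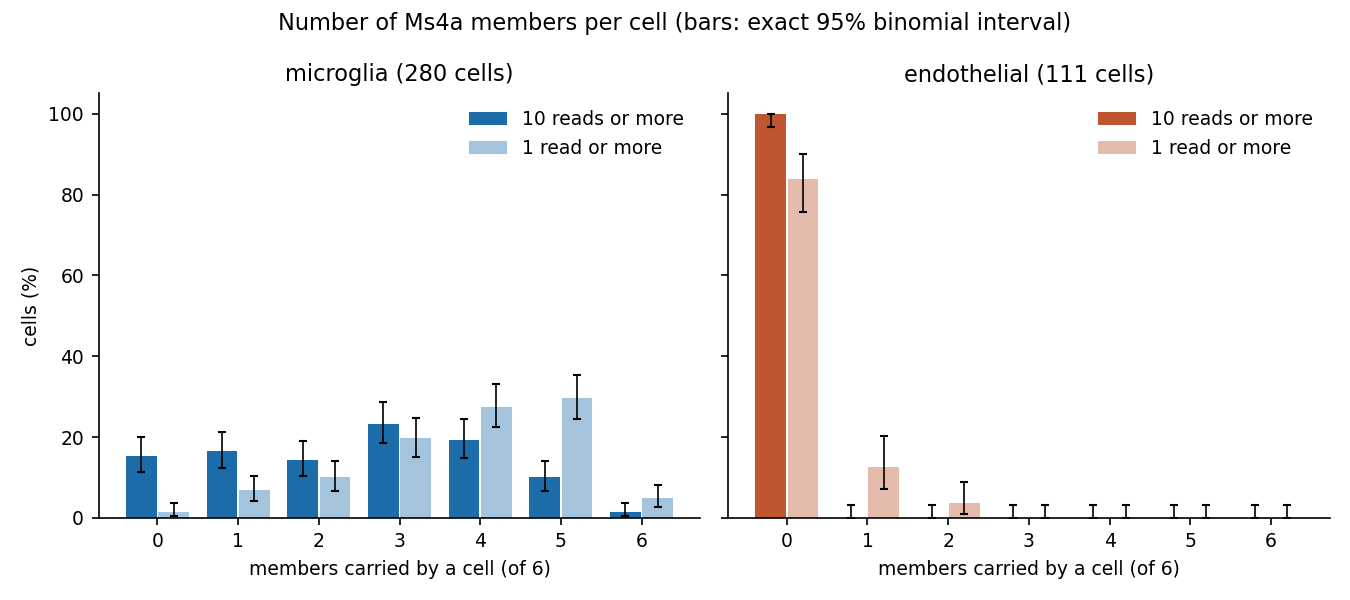
Share of cells that carried 0 to 6 members at 10 reads or more (dark) and at 1 read or more (light), microglia class left and endothelial class right, with exact 95% binomial intervals. At 10 reads microglia-class cells spread over the whole range with a peak at 3 members, and all 111 endothelial cells sit at 0. At 1 read 93 endothelial cells sit at 0, 14 at 1 and 4 at 2.

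The 6 members fell into 52 of the 64 possible combinations at 10 reads. After none, the most frequent were all but Ms4a4c (22 cells) and Ms4a7 with Ms4a6b, Ms4a6c and Ms4a4a (19). Ms4a6d alone and Ms4a7 with Ms4a6b and Ms4a6c followed with 15 cells each, and Ms4a7 alone was in 13. Ms4a6d was the member most often carried without another, in 15 of its 111 carriers (13.5%), and Ms4a4a stood alone in 3 of 110 (2.73%) and Ms4a4c in 1 of 37.

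Ms4a7 shared 109 cells with Ms4a6b, 98 with Ms4a6c and 95 with Ms4a4a, the pair with the highest rank correlation of the 15. Of the 110 Ms4a4a carriers, 95 carried Ms4a7 (86.4%), against 66 of the 170 other cells (38.8%). Of the 144 Ms4a6b carriers, 109 carried Ms4a7 (75.7%), against 38.2% of the other cells. Ms4a4c went the other way: 43.2% of its 37 carriers carried Ms4a7 and 29.7% carried Ms4a4a, against 59.7% and 40.7% of the other cells, while 73.0% carried Ms4a6c, against 45.7%. Spearman's rho of log2(CPM + 1) over the 280 cells was 0.48 for Ms4a7 with Ms4a4a, 0.41 for Ms4a7 with Ms4a6b and -0.09 for Ms4a4a with Ms4a4c, with a median of 0.14 over the 15 pairs. It was 0.51 on plate A and 0.44 on plate B for Ms4a7 with Ms4a4a. Ms4a6b and Ms4a6c, whose start-site windows are printed above as the most alike, reached 0.25, the same as Ms4a7 with Ms4a6c. Cells share plate, depth and source, so these values describe the cells and carry no p.

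**Figure D3:**
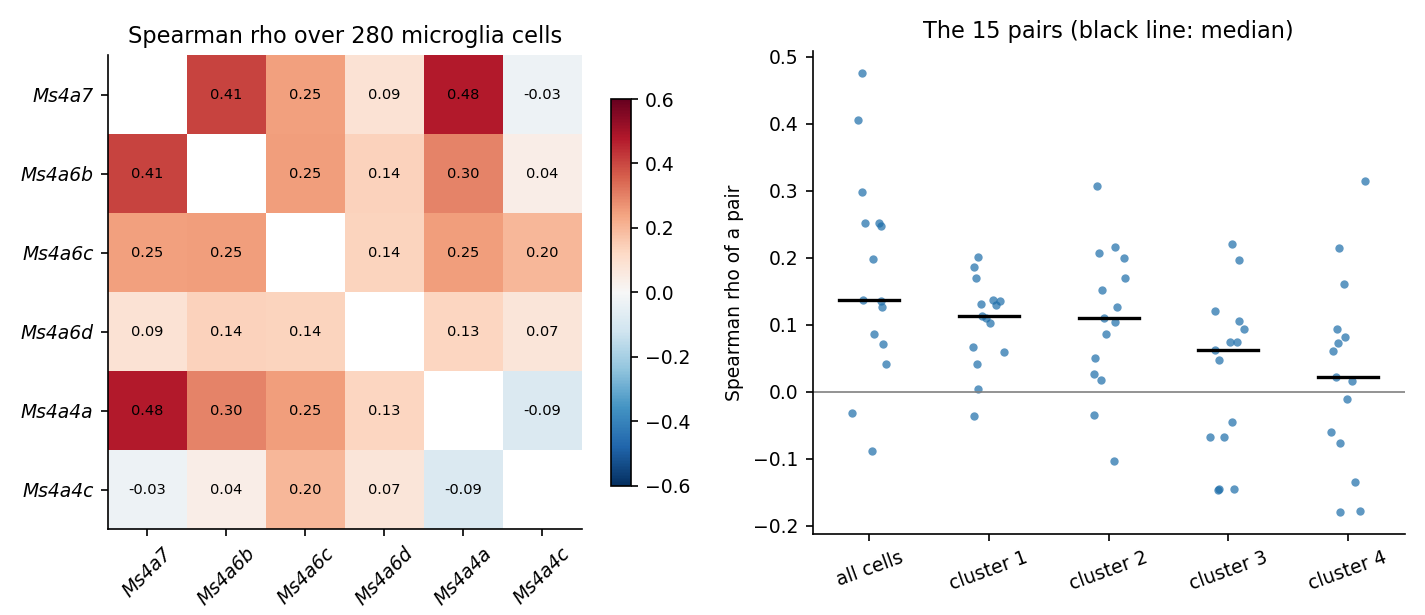
Left, Spearman's rho of log2(CPM + 1) for each pair of members over 280 microglia-class cells; right, the 15 pairs over all cells and within each of the 4 clusters described in the text, with black lines at the medians. The highest value is 0.48 over all cells and 0.31 within a cluster, and the medians are 0.14 over all cells and 0.11, 0.11, 0.06 and 0.02 within clusters 1 to 4.

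The microglia class was not of 1 kind. All 280 cells held macrophage core reads, at least 129 each, and at most 868 reads (median 10) of 10 endothelial core genes. Clusters were made from 2000 variable genes with every Ms4a gene left out, so that no member helped to draw them, and 4 resulted. Cluster 1 (106 cells, 37.9%) had the markers of border-associated macrophages high, is called border-associated-macrophage-like, and was led by Ccl24, Cd38, Clec4n and Dab2, with Egfl7 and Sparcl1, known from endothelium, also among its leading genes. Cluster 3 (52 cells, 18.6%) is parenchymal-microglia-like, led by Adgrg1, Slc2a5, Sall1, Sparc and Tmem119. Ecscr and Cd34, known from endothelium, were also among its leading genes. Sparc itself was higher in the endothelial class (3373 CPM) than in the microglia class (983 CPM). Cluster 4 (33 cells, 11.8%) is dendritic-cell-like, led by Tnip3, Itgb7, Napsa and Dpp4. Cluster 2 (89 cells, 31.8%), led by Axl, Lyz1, Gpr65 and Cxcl16, met no list well enough to be named. Thus 52 of the 280 labelled microglia lay in the cluster where parenchymal markers were highest. Summed over its 10 genes, the parenchymal microglia list stood at 4331, 5489, 23681.5 and 601 CPM in clusters 1 to 4. Clusters 1 and 2 were thus not without these markers. Over the whole microglia class, Fcrls of this list was read in 98.6% of cells and P2ry12 in 83.6%.

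Ms4a7 and Ms4a4a were carried mostly in cluster 1. Ms4a7 reached 10 reads in 97 of 106 cells of cluster 1 (91.5%, 84.5 to 96.0) and 61 of 89 of cluster 2 (68.5%, 57.8 to 78.0), but in 2 of 52 of cluster 3 (3.85%, 0.469 to 13.2) and 1 of 33 of cluster 4 (3.03%, 0.0767 to 15.8). Its pooled level was 1324, 809.5, 35.0 and 13.0 CPM in clusters 1 to 4. Ms4a4a was carried by 67.9%, 38.2%, 1.92% and 9.09% of cells in clusters 1 to 4, at 740.1, 279, 14.4 and 76.0 CPM. Both were thus carried by few of the parenchymal-microglia-like cells.

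Ms4a6b was carried by 66.0%, 57.3%, 17.3% and 42.4% of the cells of clusters 1 to 4, at 756, 539.6, 57.8 and 214 CPM. Ms4a6c was instead most frequent in clusters 4 (66.7%) and 2 (62.9%), with 53.8% in cluster 1 and 5.77% in cluster 3. Its levels in clusters 1 to 4 were 287, 331, 27.1 and 342 CPM. On plate A alone the level was highest in cluster 2, at 373 CPM, against 289 in cluster 1 and 223 in cluster 4, which had 10 cells there. On plate B it was highest in cluster 4, at 374 CPM. Ms4a4c stood apart from all of these: 17 of 33 dendritic-cell-like cells carried it (51.5%, 33.5 to 69.2), against 18.0% of cluster 2, 2.83% of cluster 1 and 1.92% of cluster 3. That was 322 CPM in cluster 4, against 97.0, 29.7 and 3.32 CPM in clusters 2, 1 and 3.

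Ms4a6d was the most even member. It was carried by 43.4% of cluster 1 (33.8 to 53.4), 39.3% of cluster 2 (29.1 to 50.3), 30.8% of cluster 3 (18.7 to 45.1) and 42.4% of cluster 4 (25.5 to 60.8). Its levels were 369.9, 272, 149 and 302 CPM. In cluster 3 it was the member with the highest share of carriers, and 16 of these 52 cells carried it.

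**Figure D4:**
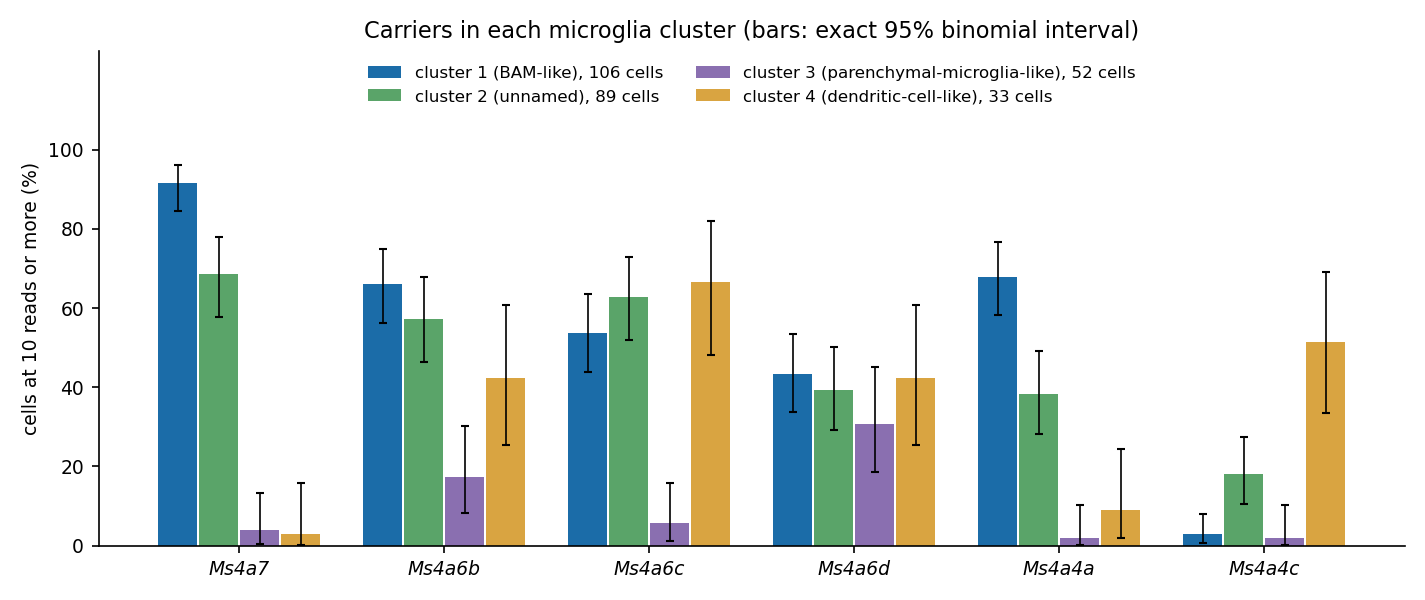
Share of microglia-class cells at 10 reads or more of each member in clusters 1 to 4, with exact 95% binomial intervals. Ms4a7 and Ms4a4a fall off from cluster 1 to clusters 3 and 4, Ms4a4c is highest in cluster 4 (51.5%), and the intervals of Ms4a6d overlap in all 4 clusters (30.8% to 43.4%).

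At least 4 members were carried by 50 of 106 cells in cluster 1, 32 of 89 in cluster 2, 0 of 52 in cluster 3 and 4 of 33 in cluster 4. No member was carried by 3, 9, 27 and 4 cells of clusters 1 to 4, so 51.9% of parenchymal-microglia-like cells were without any at 10 reads. A few reads were common there all the same: 55.8% of cluster 3 had at least 1 read of Ms4a7, and 23.1% after drawing 39000 reads per cell, while the median cell had 2.87 CPM. For scale, 10.8% of endothelial cells had a read of Ms4a7, and 3.60% after drawing 39000 reads per cell. On plates A and B alone, without drawing down, 3 of 17 endothelial cells had a read of it (17.6%). Within clusters the members were only weakly related, with median rho values of 0.11, 0.11, 0.06 and 0.02 over the 15 pairs and a highest of 0.31. Median depth was 121580, 139203, 175566 and 206432 reads in clusters 1 to 4.

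**Figure D5:**
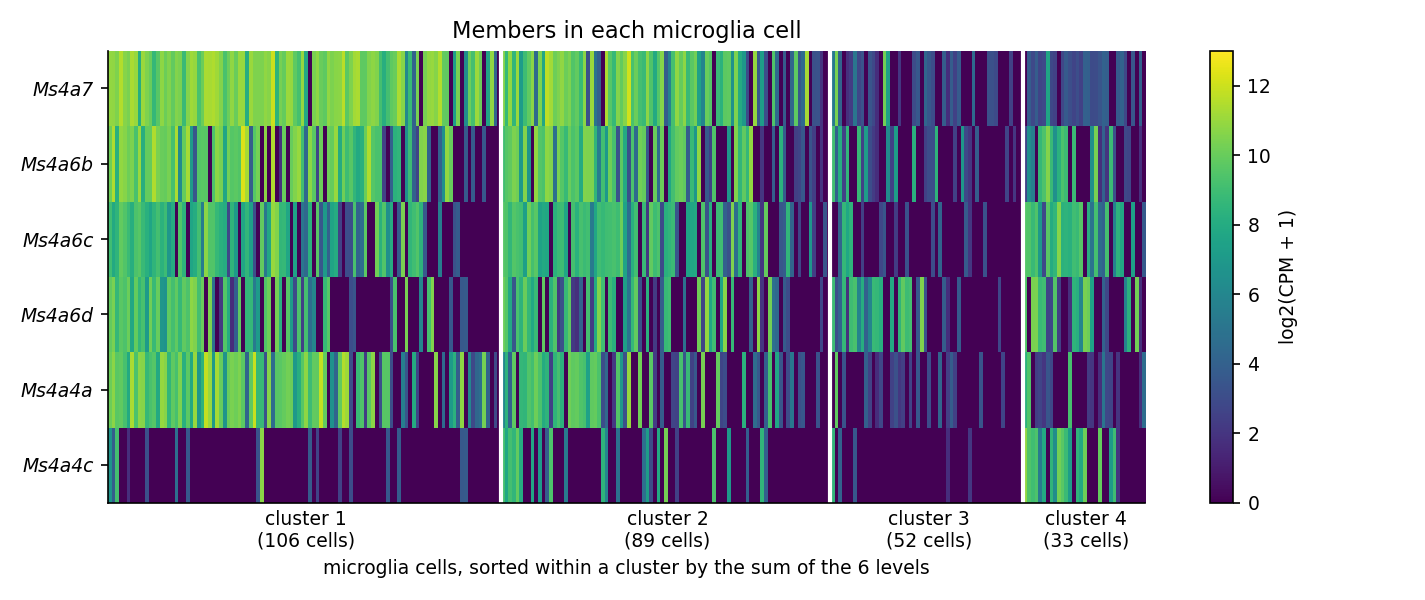
Level of the 6 members (rows) as log2(CPM + 1) in each of 280 microglia-class cells (columns), by cluster and sorted within it by the sum of the 6 levels. At 10 reads Ms4a7 is in 97 of 106 cells of cluster 1 and 61 of 89 of cluster 2, the 37 carriers of Ms4a4c are mainly in clusters 4 (17) and 2 (16), and 27 of the 52 cells of cluster 3 carry no member at 10 reads.

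Markers of other cell types moved with the clusters. Summed over 12 genes, the border-associated macrophage list stood at 16390 CPM in cluster 1, 7216 in cluster 2, 745 in cluster 3 and 1439 in cluster 4. The MHC class II list of 7 genes stood at 2300, 19163, 1729 and 31350 CPM in clusters 1 to 4, and the macrophage core list at 28569, 32667, 39889 and 9422 CPM. The dendritic cell list of 8 genes stood at 359, 272, 25.7 and 5266 CPM and the monocyte list of 8 genes at 5.76, 437, 6.53 and 1207 CPM, both highest in cluster 4, where Ms4a4c was highest. Most of the monocyte list was Ccr2, at 290 CPM over the microglia class. S100a4, Plac8 and Fn1 were at 21.3, 19.5 and 3.68 CPM there, and 3 of the 8 genes had no read in cluster 4. The part of both lists in the Ms4a4c level was not tested. The endothelial core list was at 82.7, 194, 560.5 and 126 CPM, highest in the cluster with the fewest member reads, and its part in the member levels was not tested. Every cluster held cells of plates A and B, at least 10 of each.

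The cells were also split on 2 single markers, chosen after the cluster values were seen. In 186 cells with at least 10 reads of Mrc1, the mannose receptor of border macrophages, and fewer of Sall1, a transcription factor of resident microglia, 78.5% (71.9 to 84.2) carried Ms4a7 and 53.8% Ms4a4a. Among the 36 cells with Sall1 and without Mrc1, 0 carried either (0%, up to 9.74%), and 7 carried Ms4a6b, 3 Ms4a6c, 10 Ms4a6d and 0 Ms4a4c. In 2 further cells both markers reached 10 reads, and both cells carried Ms4a7 and Ms4a4a. In the 56 cells with neither marker the share with Ms4a4c was 25.0%, against 12.4% in those with Mrc1.

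At 10 reads, carriers of every member but Ms4a4c were more frequent on plate A than on plate B, while cells on plate B had more reads (median 199821, against 122714 on plate A). For Ms4a6b, 66.9% of 133 cells on plate A were carriers and 37.4% of 147 cells on plate B were, and for Ms4a6c it was 60.9% and 38.8%. At an equal 39000 reads the shares were 70.7% on plate A and 46.9% on plate B for Ms4a6b, and 76.7% and 63.3% for Ms4a7. Ms4a4c stood at 15.8% on plate A and 18.4% on plate B. At 1 read or more without drawing down, Ms4a7 was read in 82.0% of cells on plate A and 85.7% on plate B, and Ms4a4a in 66.2% and 66.7%. Within cluster 1 alone, 79.3% of cells on plate A and 50% on plate B carried Ms4a6b. What the plates stand for is not labelled.

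Genes most like each member over the 280 cells were taken from 4392 genes read in at least 20% of them. For Ms4a7 these were Mrc1 (rho 0.64), Pf4, a chemokine of border macrophages (0.61), the endocytic adaptor Dab2 (0.59), the scavenger receptor Stab1 (0.54) and the lipid carrier Apoe (0.54). For Ms4a4a they were F13a1, the coagulation factor XIII subunit (0.54), Pf4 (0.50), Mrc1 (0.49), Stab1 (0.48) and Wwp1 (0.45), and for Ms4a6b Stab1 (0.41), the protease Ctsc (0.39), Dab2 (0.38), Nrp1 (0.37) and Pf4 (0.36). Within cluster 1 the rho of Ms4a7 was 0.15 with Mrc1, 0.02 with Pf4, 0.14 with Dab2, -0.01 with Stab1 and 0.01 with Apoe. Within cluster 2 these values were 0.44, 0.32, 0.22, 0.34 and 0.02 in the same order. For Ms4a4a within cluster 1, rho was 0.31 with F13a1, -0.01 with Pf4, 0.19 with Mrc1, 0.01 with Stab1 and 0.01 with Wwp1. The values over all cells thus include the difference between clusters. Ms4a6c was most like Plbd1 (0.34), Tmem176b (0.33), Tgfbi (0.30), Mrc1 (0.29) and Ifi204 (0.29). Ms4a4c was most like the cytokine receptor chain Il2rg (0.36), Tmsb10 (0.34), S100a11 (0.33), the adhesion receptor Cd44 (0.32) and Cd52 (0.31). Ms4a6d had no close companion, with Dctn4 (0.29), Glmp (0.28), Ybx1 (0.25), Rfk (0.23) and Il13ra1 (0.22) at the top.

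Against whole lists, the members split in the same way. All 11 border-associated macrophage genes read in 20% of the cells had a positive rho with Ms4a7 (median 0.43), Ms4a4a (0.44), Ms4a6b (0.31), Ms4a6c (0.17) and Ms4a6d (0.12), and 2 of 11 did with Ms4a4c (median -0.07). For the 7 MHC class II genes, which present antigen to T cells, the medians were 0.19 with Ms4a6c and 0.20 with Ms4a4c, with 7 of 7 above 0 for both, against -0.10 with Ms4a7 and -0.17 with Ms4a4a. For the 10 parenchymal microglia genes every member had a median below 0, between -0.06 for Ms4a6d and -0.25 for Ms4a7. The 8 interferon-stimulated genes read in 20% of the cells had medians between 0.06 and 0.17, highest with Ms4a4c. These correlations are weak and are given as a description.

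A list of partner and neighbour signalling genes of MS4A proteins was also high in the microglia class. Of 15 such genes, 13 were called higher in the microglia class, against 19.9% of all genes tested, and 0 lower, with a median log2 ratio of 7.12 (0.36 over all genes). Tyrobp and Fcer1g of this list are also among the macrophage core genes. A high count was thus built into the choice of the list and tests nothing about the MS4A proteins. Apoe stood at 6939 CPM in the microglia class and 524 CPM in the endothelial class, the inhibitory Fc receptor Fcgr2b at 1384 and 0.702 CPM, and the adaptor Tyrobp, which signals for TREM2, at 1384 and 7.16 CPM. Tmem176b, a distant relative of the family, was at 1445 and 408.5 CPM, a log2 ratio of 1.82 that missed the 4-fold mark. Over the microglia cells, the tetraspanin Cd9 was the gene of this list with the lowest rho for Ms4a7 (-0.48), Ms4a4a (-0.45), Ms4a6b (-0.31), Ms4a6c (-0.22) and Ms4a6d (-0.10), and the highest was Apoe for Ms4a7 (0.54) and for Ms4a6b (0.26).

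Of the other 15 Ms4a genes, 11 had 0 reads in all cells. Ms4a14, next to Ms4a7 on the chromosome, had 3809 reads in the microglia class and 1 in the endothelial class, or 80.2 CPM in the microglia class, and was carried by 38 microglia-class cells at 10 reads. Of these 38 cells, 37 carried Ms4a7 (97.4%), against 51.2% of the others, and 24 were in cluster 1, 14 in cluster 2 and 0 in clusters 3 and 4. Ms4a4b, known from mouse T cells, had 151 reads in 7 microglia-class cells and 1 in the endothelial class, against 4397 microglia reads of Ms4a4c, the neighbour whose start-site window is printed beside its own. Ms4a2 and Ms4a1, named here after their counts were seen, had 8 reads and 1 read in the endothelial class and 0 in the microglia class.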

How the data were processed

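Each deposited value is a whole-number read count of a gene in a cell, with no normalization by the authors. The genome build was GRCm39, and the tools named in the submitters' processing notes are featureCounts of Subread 1.4.6-p5, and SAMtools 1.16.1. Which aligner and annotation were used, and how strand and multiply mapped reads were handled, is not stated in those notes or the labels.

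A deposited cell table gave each column its class by plate and well (391 wells, all distinct, 0 identical columns, no column left out). No cell filter and no doublet caller was used. Reads were summed per class and divided by all gene reads (47508014 microglia, 21361227 endothelial). The pseudocount was 1 CPM and the minimum 1 CPM. Poisson, conditional binomial and Clopper-Pearson intervals are exact.

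Clusters used scanpy 1.11.5 and leidenalg 0.10.2 (20 principal components, 15 neighbours, resolution 0.5), and their names were judged after the levels were seen. Other software was Biopython 1.88, matplotlib 3.10.9, pandas 2.3.3, scipy 1.17.1 and numpy 2.4.6 under Python 3.11.15. The pooled-class call and the Poisson and conditional binomial intervals were tested on simulated counts, and the other steps were not. Named are all members, other Ms4a genes at 10 or more reads, the 5 genes most like each member (leaving out Ms4a, mitochondrial and predicted genes), and up to 4 genes of a list by microglia CPM. Extremes of a list and cluster leaders were named after their values were seen. Members and lists were chosen with earlier results of these data known.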

Additional observations from a re-analysis of the deposited data

How the results depend on the processing

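All 6 members were called higher in the microglia class at 8-fold, with a pseudocount of 0.1 CPM, with no filter on low values, with the mean of each cell's CPM, without mitochondrial genes, within plate A (7 endothelial cells) and plate B (10), with only the 65 endothelial cells under 10 macrophage core reads, and, an alternative added after seeing the data, without the microglia-class cells at 100 or more endothelial core reads, which left 256. The log2 ratios ranged from 5.87 (Ms4a4c) to 11.32 (Ms4a6c). The share of microglia-class cells with no member was 1.43% at 1 read, 15.4% at 10 reads, 7.5% after drawing 39000 reads, and 13.7% at 10 reads without those endothelial-rich cells. The share with 4 or more was 62.1% at 1 read, 30.7% at 10 reads, 42.1% at 39000 and 50% at 71000 reads, and 32.0% at 10 reads without those cells. With coding length, 2 of 6 members kept their place by level per length. At resolution 1, and within either plate, 5 of 6 members kept the cluster where they were highest. By pooled level, Ms4a6c was highest in cluster 2 on plate A, and Ms4a6d was highest in cluster 4 on plate B. With Ms4a genes allowed, none was among the 2000 variable genes, and with 8 of them added, after seeing the data, the 4 clusters held the same cells. Of 72 values for single members, 50 stayed within 1 log2 unit or their interval and 22 moved. No paired analysis was possible because each class is 1 sample, so no test was fitted that could hold a block. Values within plates A and B stand in this paragraph. On these plates all microglia-class cells came from wells in rows I to P and all endothelial cells from wells in rows A to H. Class and position thus cannot be told apart within a plate, and the part of position in these values was not tested. One sample per class, reads without molecular identifiers and reads shared between related genes limit every value.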

Other observations

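Gm56663, a predicted gene of the table with no entry in the reference annotation used here, was picked out after its values were seen because it moved with Ms4a4a. It had 8926 reads in the microglia class and 3 in the endothelial class, and 105 of its 110 carriers at 10 reads also carried Ms4a4a, with a rho of 0.82 over the microglia-class cells. Whether the 2 genes overlap, and so share reads, was not tested. Gm8369, between Ms4a6c and Ms4a6b in RefSeq, had 120 reads in the microglia class.

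Ms4a1 is known from B cells and Ms4a2 from mast cells, and markers of these and of other blood cells are given here as values. In the microglia class the B cell genes Cd79a and Pax5 were at 0.800 and 0.0210 CPM, while Cd79b was at 84.0 CPM in 18.2% of the cells and Ighm at 864 CPM in 90.4% of them. The neutrophil genes S100a8, S100a9 and Retnlg had 0 reads in the microglia class, and Csf3r was at 200.03 CPM in 43.9% of the cells. Of the mast cell genes, Kit had 7.14 CPM in microglia-class cells and 0.0936 CPM in endothelial cells, and Hdc at 0.126 and 2.06 CPM, read in 0.714% of microglia-class cells and 25.2% of endothelial cells. Cpa3 and Tpsb2 had 0 reads in the microglia class and stood at 0.0936 and 0.609 CPM in the endothelial class.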
